A study of Homo sapiens with 8 samples.

Results

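The comparison described here sets SW620 against HCT116, a pair of human colorectal cancer cell lines, with both lines under 5-fluorouracil (5-FU). It takes 4 of the 8 libraries of the study, 2 per line, and all genes of the deposited count table. HCT116 and SW620 cells had each been given 5-FU for 24 h at the dose that the submitters call the IC50, the concentration that lowers a growth or viability readout by 50%. The other 4 libraries come from the same lines after 24 h of AFZC, a preparation that the labels name only by these letters, also at its IC50, and they serve below as the place where the same line difference was measured again. The labels give no concentration for either line, and untreated cells were not analysed here. Each comparison between the lines therefore holds the differences that exist without drug and the differences in response together, and these cannot be told apart.

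HCT116 is known as a mismatch repair-deficient line with an activating mutation of CTNNB1, the gene of beta-catenin. SW620 was derived from a lymph node metastasis and carries a mutation of APC. 5-FU is taken up and turned into fluorinated nucleotides, of which one blocks thymidylate synthase and others are built into RNA and DNA. The cell answers with replication stress, base excision and mismatch repair and induction of p53 target genes.

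RNA was read as counts per gene symbol. Total counts were 34029596 and 33891867 in the HCT116 libraries and 33520117 and 40590291 in the SW620 libraries under 5-FU, with 26500, 27443, 24744 and 24427 genes having at least 1 count. Mitochondrial transcripts took 10.6% and 9.95% of counts in HCT116 and 6.65% and 5.64% in SW620. Of 57169 genes, 21378 had enough counts to be tested. On the log scale the libraries of a line correlated at 0.986 (HCT116) and 0.984 (SW620) across genes, and the lines at 0.814 to 0.819. Whether the 2 libraries of a line are separate cultures is not stated, so a p-value here reflects how far these libraries scatter, possibly for technical reasons only.

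Of the tested genes, 11704 differed between the lines under 5-FU at a Benjamini-Hochberg adjusted p under 0.05 in edgeR's quasi-likelihood test, which is 54.7% of all genes tested. In SW620, 5674 genes were higher (26.5%), and in HCT116, 6030 genes were higher (28.2%). The counts of list members given below are to be read beside these shares of all genes. The lists hold mostly protein-coding genes, which were called more often. Of 15171 protein-coding genes, 4442 were higher in SW620 and 4733 in HCT116, so that 60.5% were called. At least 2-fold differences were called for 3897 genes higher in SW620 (18.2%) and 4562 higher in HCT116 (21.3%). At least 16-fold differences numbered 1159 and 1468. The median log2 fold change (SW620 over HCT116) over all genes tested was -0.04, and the median size of the change, without its sign, was 0.96. Scaling by library totals in place of TMM factors moved the median of all genes by -0.30, and the share of calls that were higher in SW620 then fell from 48.5% to 35.6%. All values below are counts per 1000000 counts (CPM) scaled with TMM factors, given for HCT116 library 1 and 2 and then SW620 library 1 and 2, and log2 fold changes are SW620 over HCT116 ± SE unless a sentence says otherwise. In bulk RNA, fewer cells that express a gene and less of its RNA per cell cannot be told apart.

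Some genes had counts in 1 line only. At a mean of at least 1 CPM, 233 genes were read in SW620 with not a single count in either HCT116 library, 161 of them protein-coding. The reverse held for 293 genes, 227 of them protein-coding. At 10 CPM or more these numbers were 62 and 77. For these genes each fold is a lower bound, computed as if the silent line had 3 counts in its libraries together.

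TXNIP (chromosome 1, 145992435 to 145996600, minus strand, GRCh38), which encodes a thioredoxin-binding protein that restrains glucose uptake, was the extreme case on the SW620 side. It stood at 5142 and 6228 CPM in SW620 and at 0 counts in both HCT116 libraries, at least 134170-fold higher. Under AFZC it was again at 0 in HCT116, and at 1838 and 2483 CPM in SW620. The promoter is shown because TXNIP is a textbook target of MondoA, a glucose-sensing transcription factor that binds paired E-box-like half-sites. In the RefSeq promoter window (250 bases before to 50 bases after the start; chr1:145996530-145996829, minus strand, GRCh38.p14, 5′ to 3′) the capitals mark its only match, a pair of CACGAG half-sites with 5 bases between them.
TXNIP: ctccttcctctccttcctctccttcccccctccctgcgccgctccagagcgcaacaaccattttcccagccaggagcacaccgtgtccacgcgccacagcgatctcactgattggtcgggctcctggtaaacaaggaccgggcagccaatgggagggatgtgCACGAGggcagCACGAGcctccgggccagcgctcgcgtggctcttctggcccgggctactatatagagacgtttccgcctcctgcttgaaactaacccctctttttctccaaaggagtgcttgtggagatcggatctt
Only this exact spelling, which is that of TXNIP itself, was searched, on both strands. It was found in the window of 2 of 27305 genes with a RefSeq promoter (0.0073%). Other spellings of the half-sites were not searched, so this share does not measure how rare such paired sites are. The match lies 88 bases before the start. It describes the letters of the reference genome and says nothing of binding in either line.

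Among other genes read in SW620 alone were GJB1, the gap junction protein connexin 32 (273 and 269 CPM, at least 6356-fold), and ROBO1, a receptor for SLIT guidance proteins (239 and 244 CPM, at least 5671-fold). TOX3, a chromatin protein, had 209.8 and 251 CPM, and FZD10, a WNT receptor, had 137 and 172 CPM. TFF3, a trefoil peptide secreted with mucus, had 43.2 and 47.1 CPM, SLC22A3, an organic cation transporter, 54.1 and 45.6 CPM, and KCNE3, a potassium channel subunit of intestinal epithelium, 42.9 and 43.0 CPM. G0S2, an inhibitor of the lipase ATGL, had 51.7 and 64.8 CPM, with an adjusted p of 0.00204 that rose to 0.0735 without the filter on low counts and to 0.0650 and 0.0618 without SW620 library 1 and 2. TRBC2, a T cell receptor constant region, had 82.2 and 86.5 CPM; reads of its near-identical copy TRBC1 may be shared, and PTPRC and CD3E, which define leukocytes and T cells, had at most 2 counts in any of the 4 libraries.

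On the HCT116 side, SLC1A3, a glutamate and aspartate transporter, stood at 222 and 225 CPM with 0 counts in SW620, at least 4631-fold higher. PCDH7, a protocadherin, had 155 and 150.2 CPM (at least 3159-fold), and COL12A1, a fibril-associated collagen, 99.8 and 146 CPM (at least 2549.8-fold). MEF2C, a MADS-box transcription factor, was at 98.3 and 112 CPM and AMOTL1, an angiomotin that binds YAP, at 73.7 and 92.3 CPM. CPS1, the carbamoyl phosphate synthetase of the urea cycle, was at 68.6 and 68.7 CPM, and NLRP2, an NLR family protein, at 64.6 and 65.8 CPM. The zinc finger genes ZNF264 (79.0 and 82.5 CPM) and ZNF518B (67.5 and 82.6 CPM) and the vesicle cargo receptor TMED3 (84.5 and 73.5 CPM) complete the 10 with the largest fitted fold among genes of at least 10 CPM. All of these had 0 counts in SW620 under 5-FU, while under AFZC a few counts appeared in SW620 for SLC1A3, COL12A1, AMOTL1, CPS1 and NLRP2, at no more than 0.279 CPM.

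**Figure D1:**
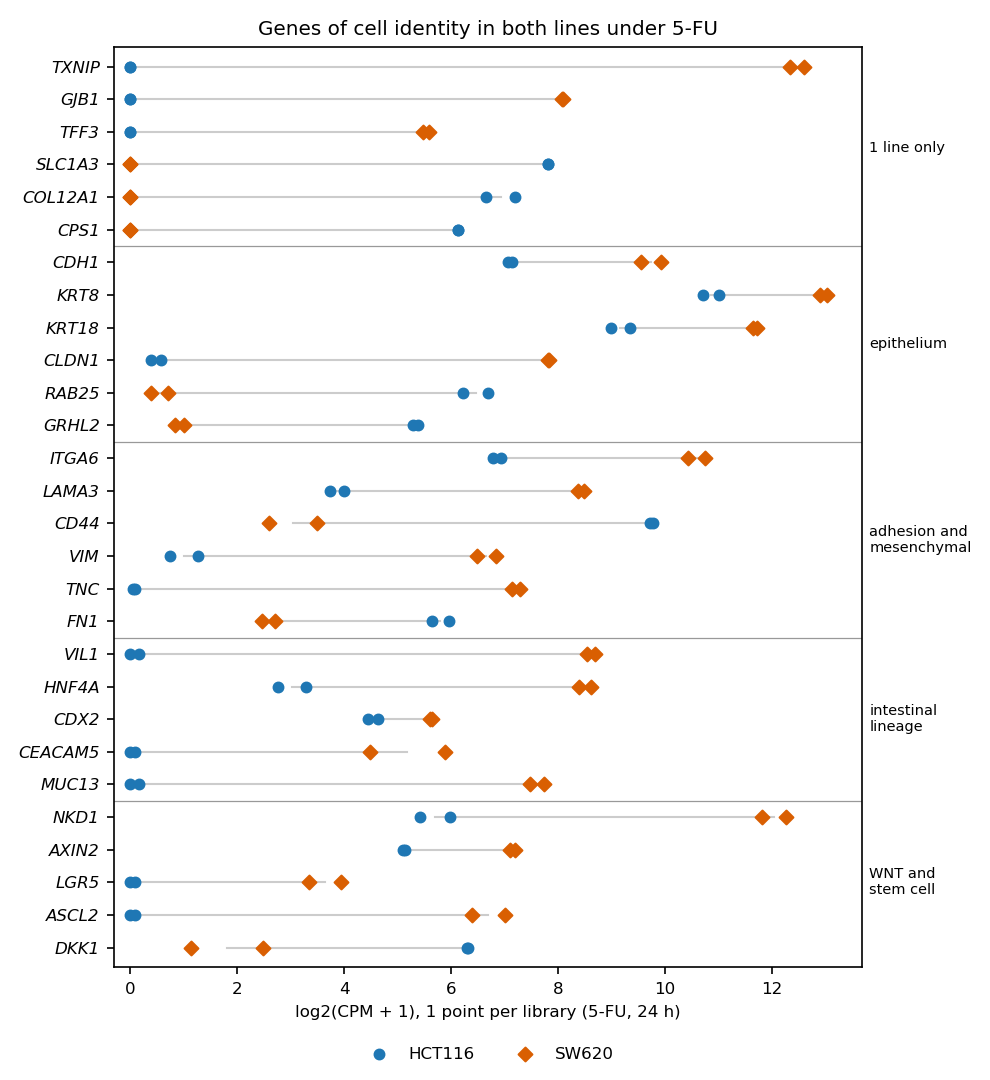
Levels of genes of cell identity under 5-FU, as log2(CPM + 1), 1 point per library (circles HCT116, diamonds SW620), with grey lines joining the line means. TXNIP stands at 0 counts in HCT116 and 5142 to 6228 CPM in SW620, and SLC1A3, COL12A1 and CPS1 stand at 0 in SW620.

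Both lines expressed epithelial genes. Of 12 markers of colorectal epithelium, 10 were higher in SW620 and none in HCT116 under 5-FU, compared with 9 and 2 under AFZC. CDH1, E-cadherin, measured 133 and 139.7 CPM in HCT116 and 748 and 974 CPM in SW620, a log2 fold change of 2.66 ± 0.23 (adjusted p = 6.60e-07). EPCAM was present in all 4 libraries, at 341 and 259 CPM in HCT116 and 581 and 658 CPM in SW620. Of 32 genes of epithelial junctions and their regulators, 17 were higher in SW620 and 6 in HCT116, with a median log2 fold change of 0.64. Scaling by library totals changed these counts to 11 and 10. Under AFZC 10 of the 32 were higher in SW620 and 11 in HCT116, with a median of -0.22. The line difference under 5-FU minus that under AFZC passed its test above 0 for 7 and below 0 for 2, against 4.14% and 5.65% of all genes. CLDN1, a tight junction claudin, was almost confined to SW620, at 0.490 and 0.309 CPM against 227 and 224 CPM (562-fold). OVOL2, a repressor of mesenchymal genes, was at 0.893 and 1.21 against 6.67 and 8.30 CPM. RAB25, a GTPase of apical recycling, and GRHL2, a grainyhead factor that keeps junction genes on, went the other way. RAB25 stood at 103 and 73.1 CPM in HCT116 and 0.310 and 0.634 CPM in SW620, and GRHL2 at 37.8 and 40.4 against 0.998 and 0.785 CPM. The largest adjusted p among the genes given here with a direction was 1.17e-05.

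Keratins, the intermediate filaments of epithelium, were higher in SW620 for 12 of 20 tested members and in HCT116 for 1, with a median of 2.23. The simple-epithelium pair KRT8 and KRT18 were read at high levels in both lines. KRT8 measured 2067 and 1678 CPM in HCT116 and 7578 and 8332 CPM in SW620 (4.25-fold). KRT18 measured 645 and 503 against 3207 and 3363 CPM (5.72-fold). KRT19 measured 1115 and 897 against 2609 and 2773 CPM. KRT80, an epithelial keratin, stood at 7.43 and 7.21 CPM in HCT116 and 439 and 542 CPM in SW620. KRT17 and KRT16, keratins of stressed and basal epithelium, were at 5 and 6 pooled counts in HCT116. In SW620 KRT17 had 63.0 and 121 CPM, a ratio of 1320.2-fold (95% exact binomial interval 565 to 4068), and KRT16 had 18.9 and 31.6 CPM. KRT13 was higher in HCT116, at 1.35 and 2.81 against 0.378 and 0.634 CPM (adjusted p = 0.012), a call that was lost without HCT116 library 2 or SW620 library 1. KRT81, KRT83 and KRT86 were among the 12, but their sequences are near-identical and the reads may have been split between them. This keratin difference was not the same under AFZC: KRT8, KRT18 and KRT19 then had log2 fold changes of -0.67, 0.01 and -1.03, and the differences between the agents passed the test (adjusted p = 0.000802, 0.000974 and 0.000938).

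S100 proteins, small calcium-binding proteins, were higher in SW620 for 11 of 14 tested members and in HCT116 for none (median 2.85). S100P, known for high levels in metastatic carcinomas, had 0.288 and 0.168 CPM in HCT116 and 283 and 324 CPM in SW620, and S100A3 had 1.96 and 2.10 against 56.9 and 57.5 CPM. Integrins, laminins and related receptors split, with 14 of 28 higher in SW620 and 9 in HCT116. ITGA6, the integrin alpha-6 chain, measured 109.6 and 121 against 1381 and 1709 CPM, its partner ITGB4 516 and 542 against 2064 and 2229 CPM, and LAMA3, a chain of their ligand laminin-332, 12.3 and 14.9 against 329 and 356 CPM. PLEC, the plectin that links them to keratin, was at 1013 and 1341 against 4831 and 5398 CPM. ITGB6 and ITGB7, beta chains of epithelial and leukocyte integrins, were nearly absent from HCT116, ITGB6 at 0.576 and 0.982 against 63.3 and 85.5 CPM and ITGB7 at 0.259 and 0.393 against 156 and 289.9 CPM. CD44, the hyaluronan receptor, showed the reverse, at 838 and 873 CPM in HCT116 and 5.06 and 10.2 CPM in SW620, a 111-fold difference (adjusted p = 1.81e-08). The giant protocadherin FAT1 was also higher in HCT116, at 2269 and 3783 against 341 and 378 CPM. LAMA4, a laminin chain, was low in both, at 0.951 and 1.26 against 0 and 0.121 CPM. The largest adjusted p among these integrin, laminin and linker genes was 0.00158, that of LAMA4.

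Mesenchymal and invasion genes were mixed as well: 13 of 30 tested were higher in SW620 and 7 in HCT116. VIM, the vimentin filament of mesenchymal cells, measured 0.663 and 1.40 CPM in HCT116 and 88.2 and 113 CPM in SW620 (97.0-fold, adjusted p = 2.71e-09). ZEB1, a repressor of E-cadherin, was at 2.33 and 2.89 against 22.6 and 28.4 CPM. The matrix genes TNC (tenascin C) and TGFBI had 3 and 8 pooled counts in HCT116. In SW620 TNC had 139 and 155 CPM, a ratio of 3462-fold (95% exact binomial interval 1184 to 16792), and TGFBI had 359 and 324 CPM, a ratio of 2993-fold (95% exact binomial interval 1519 to 6934). In the same SW620 libraries FN1, fibronectin, was lower, at 4.54 and 5.49 CPM against 48.7 and 61.4 CPM in HCT116, and SPARC was at 0.0688 and 0.0604 against 3.28 and 3.65 CPM. TWIST1, a mesenchymal transcription factor, had no count in SW620 and 3.57 and 3.76 CPM in HCT116. SW620 thus carried more E-cadherin RNA and more vimentin RNA than HCT116 in the same libraries.

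Genes of intestinal identity showed the highest median of the 38 lists, 4.04: of 32 tested, 24 were higher in SW620 and 4 in HCT116, against 26.5% and 28.2% of all genes. Transcription factors of the intestine were among them. HNF4A measured 5.73 and 8.70 CPM in HCT116 and 333 and 389 CPM in SW620 (log2 5.64 ± 0.24, adjusted p = 1.62e-09), and KLF5 61.7 and 65.4 against 766 and 887 CPM. CDX2, the homeobox gene of the intestine, differed less, at 23.6 and 20.8 against 48.9 and 47.8 CPM (2.17-fold, adjusted p = 0.000188). VIL1, villin of the brush border, had 4 counts in HCT116 and 412 and 373 CPM in SW620, and CDH17, the intestinal cadherin, had 0.663 and 1.37 against 18.5 and 24.1 CPM. The carcinoembryonic antigens were read in SW620 only or nearly so: CEACAM5 had 21.4 and 57.7 CPM with 2 counts in HCT116, and CEACAM6 had 10.1 and 28.7 CPM with none. These SW620 libraries differed from each other more than 2-fold for both. CA2, carbonic anhydrase of colonocytes, was higher in HCT116, at 35.0 and 30.0 against 6.71 and 10.9 CPM.

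Mucins divided evenly, 5 of 11 in each direction. MUC13, a transmembrane mucin of enterocytes, measured 0.115 and 0 against 178 and 213 CPM and MUC1 2.13 and 1.91 against 35.0 and 26.9 CPM. The gel-forming MUC2 and MUC5AC had 4 and 9 pooled counts in HCT116. In SW620 MUC2 had 12.8 and 18.1 CPM and MUC5AC 8.02 and 15.1 CPM. MUC12 and MUC4 were higher in HCT116, at 3.83 and 10.2 against 0.172 and 0.392 CPM (MUC12) and 1.99 and 2.89 against 0.310 and 0.815 CPM (MUC4). The MUC4 call was lost without HCT116 library 2 or SW620 library 1, and the number of mucins higher in HCT116 then fell to 2 and 3.

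WNT target and crypt stem cell genes were higher in SW620 for 19 of 30 tested and in HCT116 for 7 (median 1.52), although a different gene of the pathway is mutated in each line. The 7 became 3 or 4 when any 1 of the 4 libraries was left out. NKD1, a feedback inhibitor of WNT signalling, measured 41.7 and 61.8 CPM in HCT116 and 4901 and 3586 CPM in SW620, a log2 fold change of 6.36 ± 0.32 (adjusted p = 6.28e-09). NOTUM, a secreted enzyme that inactivates WNT ligands, was at 36.5 and 38.5 against 975 and 872 CPM, SP5, a nuclear WNT target, at 4.52 and 4.69 against 56.6 and 39.0 CPM, and AXIN2, a component of the destruction complex, at 34.0 and 33.3 against 146 and 137 CPM. The crypt stem cell genes LGR5 and ASCL2 had 2 counts each in HCT116. In SW620 LGR5 had 14.3 and 9.18 CPM and ASCL2 128 and 82.2 CPM. APCDD1, an inhibitor at the receptor, had none in HCT116 and 40.8 and 29.3 CPM in SW620. DKK1, an inhibitor that binds the LRP co-receptors, was the exception with the largest fold, at 78.0 and 77.1 CPM in HCT116 and 1.20 and 4.56 CPM in SW620, and SLC12A2, a chloride cotransporter of the crypt base, was at 137 and 155 against 32.4 and 28.7 CPM.

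HOX genes, which carry positional identity, were higher in SW620 for 18 of 34 tested and in HCT116 for 4, or 7 with library-total scaling. The HOXC members of the list supplied HOXC4, HOXC5, HOXC6, HOXC8, HOXC10, HOXC11, HOXC12 and HOXC13, and HOXC10 measured 3.05 and 1.68 against 65.8 and 67.4 CPM and HOXC12 0.0288 and 0 against 1.44 and 4.44 CPM. HOXD9 was at 0.144 and 0.112 against 7.98 and 6.64 CPM, whereas its neighbour HOXD8 was at 10.4 and 8.81 against 2.89 and 2.48 CPM. HOXB13, a gene of the hindgut, was higher in HCT116, at 17.3 and 16.5 against 1.75 and 2.20 CPM. HOX genes overlap each other and antisense transcripts, and the libraries do not keep the strand, so some of these reads could belong to a neighbour.

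The genes that take up, activate and break down 5-FU differed in both directions: 8 of 24 tested were higher in SW620 and 13 in HCT116. Leaving out SW620 library 2 reduced the 13 to 7, and library-total scaling or leaving out HCT116 library 1 reduced the 8 to 4, as leaving out HCT116 library 2 did to 5. The enzymes of first activation went opposite ways. UPP1, uridine phosphorylase, which can turn 5-FU into fluorouridine, measured 19.99 and 17.1 CPM in HCT116 and 177 and 185 CPM in SW620, a log2 fold change of 3.29 ± 0.46 (adjusted p = 0.000466). TYMP, thymidine phosphorylase, measured 32.5 and 25.9 CPM in HCT116 and 0.963 and 1.09 CPM in SW620, a log2 fold change of -4.82 ± 0.36 (adjusted p = 1.91e-07). UMPS, whose orotate phosphoribosyltransferase activity gives fluorouridine monophosphate directly, differed little, at 53.1 and 46.7 against 33.6 and 32.9 CPM (1.501-fold, adjusted p = 0.00953), and this call was lost without HCT116 library 1 or SW620 library 2.

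Downstream, TK1, thymidine kinase, measured 188 and 171 CPM in HCT116 and 34.4 and 29.7 CPM in SW620 (5.60-fold higher in HCT116), and RRM2, the small subunit of ribonucleotide reductase, 84.2 and 81.4 against 13.6 and 6.97 CPM (8.09-fold). DPYD, dihydropyrimidine dehydrogenase, which breaks 5-FU down, was low in both lines and higher in SW620, at 2.19 and 2.19 against 11.3 and 9.24 CPM (adjusted p = 0.000207). Among exporters, ABCB1, the multidrug transporter P-glycoprotein, stood at 3.74 and 4.15 CPM in HCT116 and 83.3 and 85.9 CPM in SW620 (21.4-fold), and ABCC3 at 90.3 and 107 against 276 and 299 CPM. ABCG2 and ABCC5 were called in the other direction.

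TYMS, thymidylate synthase, the enzyme that 5-FU blocks (chromosome 18, 657604 to 673578), measured 17.3 and 16.4 CPM in HCT116 and 2.82 and 1.96 CPM in SW620, a 7.07-fold difference (log2 -2.82 ± 0.28, adjusted p = 3.03e-06). Under AFZC the same gene stood at 20.05 and 30.5 against 13.2 and 16.3 CPM, and the line difference under 5-FU minus that under AFZC was -2.04 ± 0.37 on the log2 scale (adjusted p = 0.0052). Thymidylate, folate and nucleotide genes divided 12 to 12 among 28 tested. SHMT1 and DUT were higher in HCT116, as TYMS was. SHMT1, the cytosolic serine hydroxymethyltransferase, measured 59.5 and 58.3 against 12.8 and 9.75 CPM and DUT, which removes dUTP, 49.1 and 41.2 against 26.3 and 24.1 CPM. SHMT2 and MTHFD2, folate enzymes of mitochondria, were higher in SW620. SHMT2 measured 163 and 155 against 724 and 695 CPM and MTHFD2 134 and 131 against 283 and 310.4 CPM. GGH, gamma-glutamyl hydrolase, which shortens folate polyglutamates, was at 48.7 and 46.0 against 233 and 262 CPM (5.22-fold higher in SW620). NT5E, the ecto-nucleotidase CD73, was at 86.6 and 78.1 against 2.13 and 1.78 CPM (42.1-fold higher in HCT116). The largest adjusted p of these was 0.0011, that of DUT.

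**Figure D2:**
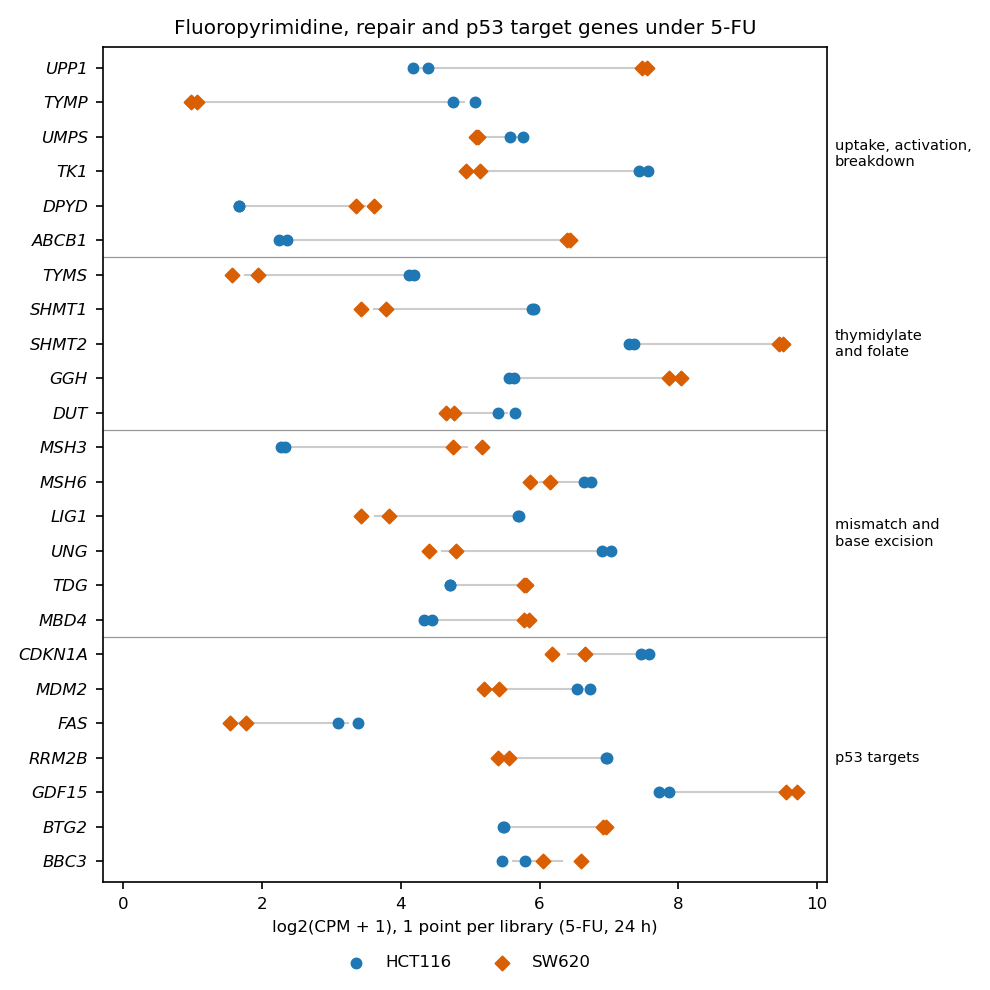
Levels of fluoropyrimidine, repair and p53 target genes under 5-FU, as log2(CPM + 1), 1 point per library (circles HCT116, diamonds SW620), with grey lines joining the line means. UPP1, DPYD, ABCB1, SHMT2, GGH and MSH3 are higher in SW620, and TYMP, TK1, TYMS and SHMT1 are higher in HCT116.

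Of 15 mismatch repair genes, 2 were higher in SW620 and 11 in HCT116 under 5-FU (median -0.78). This did not hold under AFZC, where 7 were higher in SW620 and 3 in HCT116 (median 0.14). The difference between agents passed below 0 for 6 of the 15 and above 0 for 0, against 5.65% and 4.14% of all genes. MSH3 (chromosome 5, 80654648 to 80876460), a mismatch recognition gene, measured 4.004 and 3.82 CPM in HCT116 and 35.1 and 25.8 CPM in SW620 (log2 2.96 ± 0.24, adjusted p = 4.94e-07). MSH6, also of mismatch recognition, was 1.61-fold higher in HCT116, at 106 and 99.0 against 57.0 and 69.9 CPM. LIG1, the replicative DNA ligase, was at 51.3 and 50.8 against 13.2 and 9.75 CPM. MSH4, a meiotic MutS gene, was low, at 4.35 and 3.51 against 0.103 and 0.121 CPM.

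Base excision repair, the path that removes uracil and fluorouracil from DNA, had 2 of 20 genes higher in SW620 and 10 in HCT116 (median -0.43). Under AFZC 4 were higher in SW620 and 6 in HCT116 (median 0.15). The difference between agents passed below 0 for 7 of the 20 and above 0 for 1, against 5.65% and 4.14% of all genes. The glycosylases that begin it were divided. UNG, the main uracil glycosylase, measured 130.1 and 119 CPM in HCT116 and 26.8 and 20.1 CPM in SW620 (5.31-fold higher in HCT116, adjusted p = 2.19e-07). TDG and MBD4, which act on thymine and uracil opposite guanine, measured 25.1 and 25.03 against 53.7 and 54.8 CPM (TDG) and 19.1 and 20.9 against 53.5 and 56.8 CPM (MBD4) (2.17-fold and 2.75-fold higher in SW620). NEIL1 and NEIL3, glycosylases for oxidised bases, were higher in HCT116, at 37.0 and 32.7 against 5.37 and 4.02 CPM (NEIL1) and 12.1 and 14.6 against 3.03 and 1.96 CPM (NEIL3). The uracil glycosylase SMUG1 was not called.

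Replication genes gave the most one-sided count of the DNA lists under 5-FU. The list holds 37 DNA replication genes and E2F targets. They cover origin licensing, the replicative helicase, primases, polymerases, clamp loaders and E2F factors. Of these 37, 33 were higher in HCT116 and 1 in SW620, with a median of -1.31. Of all genes tested, 28.2% were higher in HCT116. GINS2, a subunit of the CMG helicase, measured 35.7 and 30.8 CPM in HCT116 and 3.34 and 3.35 CPM in SW620 (9.94-fold, adjusted p = 5.65e-08). MCM5 and MCM6, of the MCM helicase ring, measured 109 and 107 against 15.4 and 14.8 CPM (MCM5) and 127 and 126 against 50.3 and 49.6 CPM (MCM6). CCNE2, cyclin E2, was at 8.55 and 9.20 against 1.07 and 0.815 CPM and CDC6, a licensing factor, at 61.4 and 60.2 against 26.1 and 22.9 CPM. E2F1, the transcription factor after which the group is named, differed less, at 38.4 and 32.5 against 18.8 and 23.1 CPM (log2 -0.76 ± 0.17). ORC6, an origin recognition subunit, was the 1 gene higher in SW620, at 25.3 and 24.6 against 34.0 and 34.1 CPM; its adjusted p of 0.0263 rose above 0.05 on leaving out any 1 of the 4 libraries, with library-total scaling and without the filter on low counts. POLA1, POLA2 and RFC3 were not called.

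Promoters of 4 members are shown because E2F sites near the start are the textbook feature of this gene group. GINS2, CDC6 and MCM6 hold the motif and were higher in HCT116, and ORC6 holds none. The motif was searched on both strands as TTTCCCGC, TTTGGCGC, TTTGCCGC or TTTCGCGC, and capitals mark it. The windows are chr16:85688905-85689204 (minus strand) for GINS2, chr17:40287629-40287928 (plus) for CDC6, chr2:135876394-135876693 (minus) for MCM6 and chr16:46689409-46689708 (plus) for ORC6, from RefSeq on GRCh38.p14, 5′ to 3′ along the gene.
GINS2: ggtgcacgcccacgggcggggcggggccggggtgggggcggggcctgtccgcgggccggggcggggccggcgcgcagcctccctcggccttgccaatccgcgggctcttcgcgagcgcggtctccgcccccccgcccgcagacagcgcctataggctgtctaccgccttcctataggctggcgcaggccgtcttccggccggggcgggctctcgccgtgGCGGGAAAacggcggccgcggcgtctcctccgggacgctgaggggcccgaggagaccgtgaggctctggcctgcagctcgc
CDC6: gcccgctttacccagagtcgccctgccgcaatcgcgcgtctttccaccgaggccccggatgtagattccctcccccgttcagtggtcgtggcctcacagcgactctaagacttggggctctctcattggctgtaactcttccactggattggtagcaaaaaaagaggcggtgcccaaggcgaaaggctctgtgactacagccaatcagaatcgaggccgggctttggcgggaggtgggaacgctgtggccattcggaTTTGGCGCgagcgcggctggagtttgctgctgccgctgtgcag
MCM6: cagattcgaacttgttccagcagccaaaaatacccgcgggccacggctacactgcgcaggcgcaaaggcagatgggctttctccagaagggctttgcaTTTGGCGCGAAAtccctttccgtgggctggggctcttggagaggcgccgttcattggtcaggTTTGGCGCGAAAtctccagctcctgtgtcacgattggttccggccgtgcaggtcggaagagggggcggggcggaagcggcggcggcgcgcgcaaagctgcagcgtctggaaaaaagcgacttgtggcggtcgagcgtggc
ORC6: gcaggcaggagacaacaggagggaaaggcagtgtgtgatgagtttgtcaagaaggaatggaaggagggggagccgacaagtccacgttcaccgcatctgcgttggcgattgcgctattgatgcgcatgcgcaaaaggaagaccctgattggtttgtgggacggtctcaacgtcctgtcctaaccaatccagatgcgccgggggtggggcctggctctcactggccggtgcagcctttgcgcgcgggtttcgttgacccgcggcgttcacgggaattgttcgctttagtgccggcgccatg
In MCM6, 4 matches overlap in pairs, a forward and a reverse match sharing bases. Of the 37 members, 31 had a RefSeq promoter and 17 of these (54.8%) held the motif, compared with 908 of 27305 genes (3.33%). The list was drawn up from replication genes and E2F targets, so its higher share follows from that choice and is no result about the lines. Among the 17 with the motif, 14 were higher in HCT116 (median -1.27), and among the 14 without it, 13 were (median -1.11).

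Mitosis genes were higher in HCT116 for 16 of 32 and in SW620 for 1 (median -0.79), and the 16 became 10 without SW620 library 2. BIRC5, survivin, measured 105 and 93.8 against 19.6 and 17.3 CPM (5.39-fold) and CDC25C, a phosphatase that activates CDK1, 9.45 and 9.23 against 1.93 and 1.69 CPM. MKI67, the proliferation marker Ki-67, was at 210.2 and 376 against 129 and 93.4 CPM (adjusted p = 0.00304). CDK1 itself was not called, at 95.3 and 89.3 against 88.7 and 92.2 CPM (log2 -0.03 ± 0.18, adjusted p = 0.905), and TOP2A, topoisomerase 2 alpha, was at 150.01 and 176 against 233 and 197 CPM (adjusted p = 0.218). In a fit of the 5-FU libraries alone TOP2A was called higher in SW620 (adjusted p = 0.0277). CDC25B was the 1 gene called higher in SW620 with the 8 libraries, at 191 and 197 against 335 and 352 CPM. The calls of the list thus lay almost all on the HCT116 side, and 15 of the 32 members were not called.

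Homologous recombination and Fanconi genes were higher in HCT116 for 15 of 25 tested and in SW620 for 2 (median -0.69). FANCA, of the Fanconi core complex, measured 50.5 and 59.8 against 9.63 and 8.85 CPM (5.97-fold) and FANCD2, which the complex ubiquitinates, 38.5 and 51.3 against 12.7 and 9.18 CPM. BRCA1 was at 39.8 and 45.6 against 21.9 and 12.3 CPM and FANCI, the partner of FANCD2, at 71.2 and 76.0 against 56.8 and 41.3 CPM. FANCL and FANCB, also of the core complex, were higher in SW620, FANCL at 19.9 and 21.0 against 38.3 and 31.6 CPM and FANCB at 5.36 and 6.14 against 7.88 and 10.3 CPM. Library-total scaling ended both calls (adjusted p = 0.0695 and 0.214), while leaving out any 1 of the 4 libraries left only 1 of the pair called. The FANCI call was lost without HCT116 library 2 or SW620 library 2.

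The p53 target list was higher in HCT116 for 21 of 36 genes and in SW620 for 8 (median -0.65). CDKN1A, the CDK inhibitor p21, measured 189 and 175 CPM in HCT116 and 71.2 and 99.8 CPM in SW620 (log2 -1.09 ± 0.21, adjusted p = 0.000674), and MDM2, the ubiquitin ligase of p53, 91.7 and 105 against 35.8 and 41.5 CPM (log2 -1.35 ± 0.29). TP53INP1, a stress protein of the p53 response, was at 78.9 and 79.8 against 7.98 and 5.92 CPM. FAS, a death receptor, was at 9.45 and 7.58 against 1.89 and 2.42 CPM, RRM2B, the p53-induced ribonucleotide reductase subunit, at 124 and 123 against 41.2 and 45.9 CPM, and TP53I3 at 11.6 and 8.61 against 3.96 and 3.14 CPM. TNFRSF10C, a decoy receptor for TRAIL, was at 2.59 and 2.78 against 0.413 and 0.0302 CPM.

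Among the 8 higher in SW620, GDF15 had the largest fold. GDF15, a stress cytokine, measured 231 and 211 against 751 and 837 CPM (3.59-fold higher in SW620), BTG2, an antiproliferative gene, 43.8 and 43.4 against 123 and 119 CPM, and SUSD6 19.2 and 20.6 against 67.7 and 73.3 CPM. TNFRSF10B, the TRAIL receptor DR5, was at 176 and 186 against 391 and 435 CPM. The BH3-only gene BBC3 (PUMA) was at 54.2 and 42.9 against 65.1 and 95.7 CPM and BAX, a pore-forming effector, at 48.0 and 42.6 against 77.9 and 66.3 CPM. The calls of BBC3 and BAX were lost with library-total scaling (adjusted p = 0.0638 and 0.105), both without HCT116 library 2, BBC3 without SW620 library 2 and BAX without SW620 library 1.

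Across the BCL2 family, death receptors and caspases, 14 of 31 genes were higher in SW620 and 7 in HCT116, which became 9 and 11 with library-total scaling, and the 14 became 9 without HCT116 library 2. The antiapoptotic genes were divided: MCL1 measured 197 and 209 against 516 and 653 CPM and XIAP, a caspase inhibitor, 62.6 and 63.9 against 194 and 201 CPM, whereas BCL2 measured 8.27 and 7.63 against 1.55 and 1.63 CPM. BAK1, an effector of mitochondrial pores, was at 16.4 and 14.3 against 59.2 and 77.2 CPM. TNFSF10, the ligand TRAIL, was nearly absent from HCT116 (0.403 and 0.0842 CPM) and at 9.05 and 7.97 CPM in SW620, and the receptor-linked caspase CASP10 was at 6.11 and 6.79 against 0.413 and 0.815 CPM. Cell cycle inhibitors and G1 cyclins were higher in SW620 for 8 of 17 and in HCT116 for 4, which became 7 with library-total scaling and 2 without HCT116 library 1 or SW620 library 2. CDKN2B (p15) measured 23.5 and 27.1 against 204 and 214 CPM and CDKN2A (p16 and p14ARF) 57.6 and 44.5 against 185 and 180.5 CPM. CDKN1C (p57) was at 29.04 and 21.5 against 73.5 and 129 CPM, a call lost without HCT116 library 2, SW620 library 2 or either SW620 library under AFZC, and without the filter on low counts. CCND2, cyclin D2, had no count in HCT116 and 4.95 and 9.48 CPM in SW620. RBL1 (p107) was higher in HCT116, at 16.7 and 20.6 against 10.1 and 7.67 CPM.

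**Figure D3:**
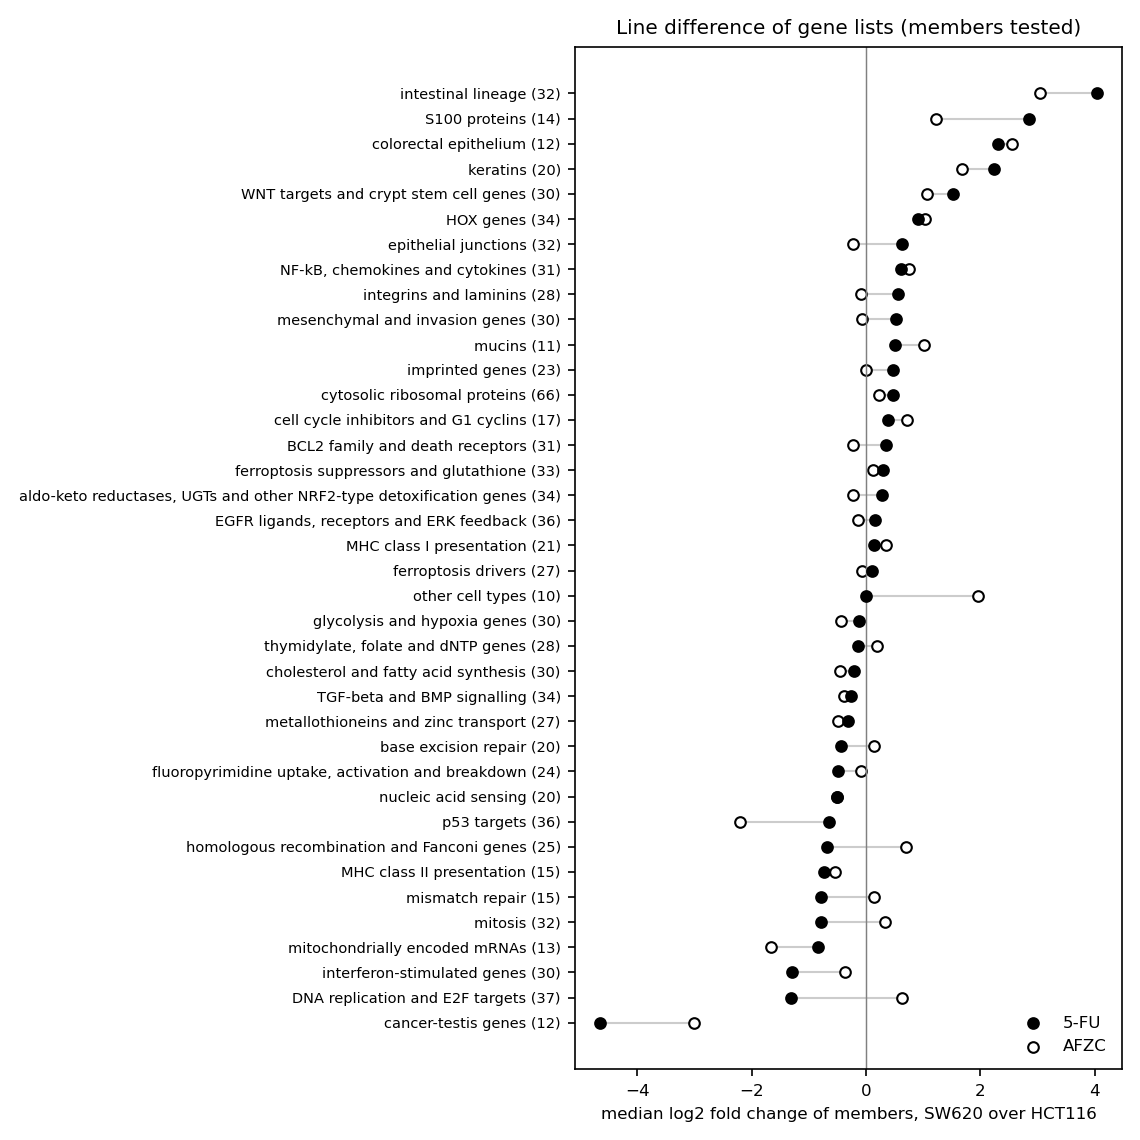
Median log2 fold change (SW620 over HCT116) of the tested members of each of the 38 gene lists under 5-FU (filled) and under AFZC (open), with the number tested in parentheses. Intestinal lineage (4.04) and cancer-testis genes (-4.65) lie at the ends under 5-FU, and the replication list lies at -1.31 under 5-FU and 0.62 under AFZC.

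Receptor signalling to ERK differed by gene. Of 36 ligands, receptors and feedback genes, 17 were higher in SW620 and 10 in HCT116, and the median of 0.16 became -0.14 with library-total scaling. EGFR measured 235 and 334 CPM in HCT116 and 9.08 and 10.1 CPM in SW620 (29.6-fold higher in HCT116, adjusted p = 5.81e-07). Its partner ERBB3 was the reverse, at 48.4 and 55.6 against 445 and 428 CPM (8.39-fold higher in SW620). The EGFR ligands EREG and AREG were higher in HCT116, at 459.8 and 469 against 62.8 and 87.3 CPM (EREG) and 354 and 311 against 96.1 and 139 CPM (AREG), the second with a call that was lost without HCT116 library 1 or SW620 library 1. The ligand HBEGF was higher in SW620, at 6.08 and 6.62 against 122 and 137 CPM. FGFR2 had 6 counts in SW620 and 35.1 and 36.1 CPM in HCT116, a ratio of 369-fold (95% exact binomial interval 169.5 to 1008). FGF19, a hormone-like ligand of the ileum, was at 132 and 108 against 1454 and 1718 CPM.

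In TGF-beta and BMP signalling, 14 of 34 were higher in SW620 and 12 in HCT116. SMAD4, the shared mediator of both branches, measured 80.2 and 79.4 CPM in HCT116 and 0.138 and 0.211 CPM in SW620, with an adjusted p of 1.72e-10 and a ratio of 451-fold (95% exact binomial interval 252 to 905). ID3, a BMP target, was at 141 and 103 against 4.16 and 7.34 CPM, and ID4 was low, at 1.47 and 1.29 against 0.0688 and 0 CPM. TGFBR2, the type 2 TGF-beta receptor, which is truncated by a microsatellite mutation in many mismatch repair-deficient tumours, was at 58.8 and 61.5 against 252 and 266 CPM (4.31-fold higher in SW620). The ligand genes INHBB and TDGF1 were nearly absent from HCT116, INHBB at 0.835 and 1.21 against 393 and 434 CPM and TDGF1 at 0 and 0.0561 against 7.98 and 7.06 CPM.

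Antigen presentation by MHC class I was even, with 7 of 21 genes in each direction; 7 higher in SW620 became 4 without HCT116 library 2. B2M, the light chain, was not called, at 414 and 304 against 379 and 408 CPM. HLA-B, a heavy chain, was at 224 and 178 against 115 and 164 CPM (adjusted p = 0.0409). The HLA-B call was lost without HCT116 library 1 or SW620 library 1, and reads of this polymorphic gene may be lost or shared in alignment to the reference. The immunoproteasome genes did not move as 1 set. PSMB8 measured 0.547 and 0.309 against 21.0 and 19.8 CPM and PSMB10 0.951 and 0.926 against 4.13 and 4.44 CPM, while PSMB9 measured 11.5 and 10.6 against 3.89 and 2.96 CPM. CALR, calreticulin, was at 619.7 and 604 against 236 and 263 CPM. MHC class II genes were higher in HCT116 for 7 of 15 and in SW620 for 2, or 1 without HCT116 library 1 or SW620 library 2. HLA-DRA and HLA-DOA had no count in SW620. In HCT116 HLA-DRA had 13.3 and 10.9 CPM and HLA-DOA 8.15 and 10.7 CPM, whereas HLA-DQB1 was at 0.144 and 0.421 against 19.7 and 25.6 CPM.

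Interferon-stimulated genes were higher in HCT116 for 17 of 30 tested and in SW620 for 5, or 3 without HCT116 library 2 (median -1.29). IFITM3, a membrane restriction factor, measured 285 and 230.2 against 45.9 and 51.1 CPM and IFIT1, an RNA-binding effector, 9.88 and 8.39 against 0.378 and 0.362 CPM. IFI44 and CMPK2 had no count in SW620 and at most 1.41 CPM in HCT116. OAS1 and MX2 were higher in SW620, at 1.008 and 1.01003 against 15.8 and 14.2 CPM (OAS1) and 0.173 and 0.168 against 1.65 and 1.48 CPM (MX2). Among sensors of foreign nucleic acid, 9 of 20 were higher in HCT116 and 3 in SW620. TMEM173, which encodes STING, was at 35.4 and 32.7 against 8.60 and 5.71 CPM. IRF7 and IKBKE were higher in SW620, at 17.2 and 15.9 against 38.9 and 59.6 CPM (IRF7) and 4.78 and 6.40 against 13.005 and 8.57 CPM (IKBKE). The IKBKE call was lost with library-total scaling and without HCT116 library 1 or SW620 library 1.

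NF-kB genes, chemokines and cytokines were higher in SW620 for 14 of 31 and in HCT116 for 4, and the 14 became 7 to 9 on leaving out any 1 of the 4 libraries. CCL20, a chemokine of gut epithelium, had 6 counts in HCT116 and 37.1 and 51.1 CPM in SW620, a ratio of 522-fold (95% exact binomial interval 239.7 to 1424). IL23A, a subunit of interleukin-23, was at 0.807 and 1.46 against 50.6 and 51.6 CPM. CXCL8, interleukin-8, was at 1.12 and 1.63 against 40.9 and 45.5 CPM, with an adjusted p of 0.0245 that rose above 0.05 on leaving out any 1 of the 4 libraries or either SW620 library under AFZC and without the filter on low counts, and CSF2 was low, at 0 and 0.0561 against 1.24 and 1.81 CPM. IL18, an epithelial cytokine, was higher in HCT116, at 90.8 and 71.4 against 3.41 and 3.77 CPM, as was the adhesion receptor ICAM1, at 12.6 and 10.8 against 2.92 and 2.35 CPM. The largest adjusted p of the group apart from CXCL8 was 0.000845, that of CSF2.

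Ferroptosis, iron-dependent death by lipid peroxidation, is held back by glutathione and GPX4. GPX4 itself was not called, at 224 and 181 against 241 and 273 CPM (log2 0.34 ± 0.17, adjusted p = 0.1). Of 33 suppressors and glutathione genes, 14 were higher in SW620 (42.4%) and 9 in HCT116 (27.3%). Of 27 drivers, 8 (29.6%) and 9 (33.3%) were, near the 26.5% and 28.2% of all genes tested. The 8 became 4 with library-total scaling and 5 without HCT116 library 1. SLC7A11, the cystine importer, measured 32.4 and 38.9 CPM in HCT116 and 180.3 and 159 CPM in SW620 (log2 2.25 ± 0.45, adjusted p = 0.00359, and 0.0505 without the filter on low counts). GPX2, a gut glutathione peroxidase, was at 0.202 and 0.589 against 898 and 1201 CPM (2618-fold), AIFM2, the GPX4-independent suppressor FSP1, at 29.3 and 29.9 against 146 and 166 CPM, and FTH1, ferritin heavy chain, at 344 and 318 against 1568 and 2495 CPM. The iron exporter SLC40A1 was at 0.864 and 0.758 against 8.64 and 10.5 CPM. On the driver side, ACSL4, which loads polyunsaturated fatty acids into lipids, was at 113 and 119 against 274 and 294 CPM (log2 1.29 ± 0.18, adjusted p = 5.88e-05), and CHAC1, a glutathione-degrading enzyme of the ATF4 response, at 5.04 and 4.49 against 44.0 and 44.4 CPM. GPX8, PROM2, DPP4 and PTGS2 were higher in HCT116. GPX8 measured 37.4 and 34.3 against 0.585 and 0.483 CPM, PROM2 10.7 and 13.4 against 0.275 and 0.181 CPM and DPP4 15.3 and 12.5 against 0.138 and 0.151 CPM, and PTGS2 (cyclooxygenase 2) 2.42 and 2.36 CPM against no count. The genes named on either side of this pathway thus differed in both directions, and the driver counts lay near the shares of all genes.

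Detoxification genes of the NRF2 type were higher in SW620 for 16 of 34 and in HCT116 for 7, or 11 with library-total scaling. The aldo-keto reductases, which reduce carbonyls and steroids, differed many-fold: AKR1C3 measured 4.67 and 3.34 against 232 and 206 CPM, AKR1C1 2.19 and 1.71 against 53.1 and 55.4 CPM and AKR1C2 0.490 and 0.505 against 23.8 and 26.4 CPM. These are close copies, and shared reads may have been split between them. CBR1, a carbonyl reductase, had no count in HCT116 and 25.05 and 26.3 CPM in SW620 (at least 603-fold). CBS, of the transsulfuration path that feeds glutathione, had no count in HCT116 and 30.3 and 30.0 CPM in SW620; the annotation holds a near-identical copy, CBSL. ALDH1A3, a retinaldehyde dehydrogenase, was at 234 and 269.6 against 40.9 and 40.9 CPM and GSTM2 at 6.25 and 6.42 against 0.275 and 0.574 CPM.

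Metallothioneins and zinc carriers were higher in HCT116 for 11 of 27 and in SW620 for 6; the 11 became 7 without HCT116 library 2 or SW620 library 1. MT1E measured 97.7 and 128 CPM in HCT116 and 0.378 and 1.78 CPM in SW620, with an adjusted p of 0.00725 that was 0.0822 and 0.0644 without SW620 library 1 and 2. MT2A, a metallothionein of many tissues, measured 319 and 366 against 58.9 and 147 CPM (adjusted p = 0.0181, and 0.147 without the filter on low counts); this call was also lost without HCT116 library 2, SW620 library 1 or either HCT116 library under AFZC. MT1A had 1.34 and 2.38 CPM in SW620 alone. Metallothioneins are near-identical in sequence, so reads may have been split between them. The zinc importers SLC39A5 and SLC39A8 were reciprocal, SLC39A5 at 0.317 and 0.309 against 36.3 and 36.4 CPM and SLC39A8 at 64.5 and 60.8 against 9.15 and 7.73 CPM.

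Lipid and sugar genes differed in both directions. The cholesterol and fatty acid list lay near all genes tested, with 26.7% higher in SW620 and 33.3% in HCT116 against 26.5% and 28.2%. In cholesterol and fatty acid synthesis 8 of 30 were higher in SW620 and 10 in HCT116, and the 8 became 5 with library-total scaling and without HCT116 library 2 or SW620 library 2. INSIG1, the sterol-regulated anchor of SREBP, measured 74.9 and 64.4 against 162 and 295 CPM. The synthetic enzymes FASN (fatty acid synthase) and MVD (mevalonate decarboxylase) were higher in HCT116, at 1546 and 1836 against 554 and 586 CPM (FASN) and 86.2 and 79.9 against 28.4 and 30.8 CPM (MVD). Among glycolysis and hypoxia genes, 7 of 30 were higher in SW620 and 12 in HCT116, and the 12 became 5 without SW620 library 2. The 7 became 4 with library-total scaling and without library 1 of either line. SLC2A1, the glucose transporter GLUT1, was at 472 and 492 against 2004 and 2112 CPM, CA9, a carbonic anhydrase induced by hypoxia, at 1.07 and 1.40 against 73.3 and 58.2 CPM, and VEGFA at 86.8 and 89.0 against 230.03 and 236 CPM. ADM (adrenomedullin) and BNIP3, textbook hypoxia genes too, went the other way, at 142 and 137 against 3.27 and 3.77 CPM (ADM) and 66.9 and 53.4 against 7.05 and 7.03 CPM (BNIP3). LDHA, lactate dehydrogenase A, was at 725 and 672 against 484 and 419 CPM, a call lost without SW620 library 2 (adjusted p = 0.0955).

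Of 13 mitochondrially encoded mRNAs, 9 were higher in HCT116 and none in SW620 (median -0.85). MT-CYB, the cytochrome b of complex III, differed most, at 6067 and 5678 against 1512 and 979 CPM (log2 -2.24 ± 0.23, adjusted p = 3.72e-06). The complex IV subunit MT-CO1 was at 25855 and 23613 against 13535 and 11799 CPM and MT-CO3 at 13354 and 10460 against 6509 and 5106 CPM. MT-CO2 was at 10158 and 8507 against 5966 and 4958 CPM and lost its call without HCT116 library 1 or SW620 library 2. MT-ND6, encoded on the other strand, was at 1673 and 1575 against 598 and 545 CPM. The 16S ribosomal RNA gene MT-RNR2 went the other way, at 16761 and 13956 against 26162 and 24805 CPM (adjusted p = 0.021). That call was lost with library-total scaling and without HCT116 library 2 or either SW620 library, and nuclear copies of this gene can share its reads. Of 66 cytosolic ribosomal protein genes, 29 were higher in SW620 and 2 in HCT116 (median 0.47). The 29 became 11 with library-total scaling, 10 without HCT116 library 2 and 13 without SW620 library 2. The 2 became 5 with library-total scaling. RPS24 measured 681 and 521 against 1560.1 and 1719 CPM and RPL37 741 and 664 against 1438 and 1617 CPM, whereas RPL13 measured 2745 and 1947 against 1098 and 1328 CPM and RPSA 2254 and 1744 against 1275 and 1427 CPM. The RPSA call was lost without HCT116 library 1 or either SW620 library, and these genes have many processed pseudogenes.

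Cancer-testis genes, germline genes that tumours can switch on, were mostly unread: of 40 listed, 12 were tested, and 7 were higher in HCT116 and 1 (TEX15) in SW620, against 4 and 0 in a fit of the 5-FU libraries alone. The 1 was also lost without either HCT116 library or SW620 library 2. MAGEA3 measured 87.5 and 75.6 CPM in HCT116 and 0 and 0.121 CPM in SW620, MAGEB2 174 and 144 against 2.75 and 2.54 CPM and PRAME 75.8 and 62.3 against 0.757 and 1.75 CPM. MAGEA2 was at 1.21 and 3.45 CPM with no count in SW620. MAGEA2, MAGEA3 and their neighbours are near-identical copies, so the division of reads between them is uncertain. Imprinted genes were higher in SW620 for 11 of 23 tested and in HCT116 for 6, and the 11 became 7 with library-total scaling and 6 without HCT116 library 2 or SW620 library 2. KCNQ1OT1, the noncoding RNA of the KCNQ1 domain, was at 6.08 and 9.99 against 63.2 and 76.6 CPM, together with its neighbour CDKN1C above. TP73 was at 24.8 and 28.7 against 1.96 and 0.755 CPM and DIRAS3 at 3.25 and 3.11 against 0.0688 and 0.362 CPM.

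Of 23 markers of fibroblasts, leukocytes, endothelium and red cells, 13 had too few counts to be tested. The other 10 had enough counts, and 4 of them were higher in SW620 and 2 in HCT116. LUM (lumican) had 27.7 and 30.1 CPM in SW620 and no count in HCT116, although DCN, COL1A2 and COL3A1, which define fibroblasts beside it, had at most 14 counts in any library. COL1A1 was at 43.7 and 45.1 against 22.8 and 24.8 CPM and LYZ (lysozyme) at 0.0576 and 0.224 against 5.37 and 7.70 CPM. The endothelial markers KDR and PECAM1 went opposite ways. KDR was at 1.35 and 1.63 CPM in HCT116 with no count in SW620. PECAM1 had 14 pooled counts in HCT116 and 132 in SW620, a ratio of 10.7-fold.

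Differences between the lines were uneven along the genome. Over 13008 protein-coding genes with a mean of at least 1 CPM the median log2 fold change was 0.01, and by chromosome it ran from -0.59 (chromosome 18), -0.50 (8) and -0.43 (4) to 0.47 (11), 0.49 (13), 0.52 (20) and 0.67 (X). Under AFZC the same chromosomes stood at -0.77, -0.47, -0.35, 0.47, 0.69, 0.40 and 0.65. SMAD4, described above, lies on chromosome 18, where 97 of 171 genes were higher in HCT116 and 27 in SW620. In windows of 20 Mb, the lowest medians were on chromosome 4 from 120 to 140 Mb (-1.64, with 27 of 33 genes higher in HCT116), on chromosome 16 from 80 to 100 Mb (-1.50, 60 of 82) and on chromosome 4 from 100 to 120 Mb (-1.32, 40 of 52). The highest was on chromosome 13 from 100 to 120 Mb (1.29), where 34 of 40 genes were higher in SW620 and 1 in HCT116. GINS2 lies in the chromosome 16 window. Copy number was not measured in these files. By gene type, 60.5% of 15171 protein-coding genes and 44.7% of 3238 lincRNA and antisense genes were called.

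**Figure D4:**
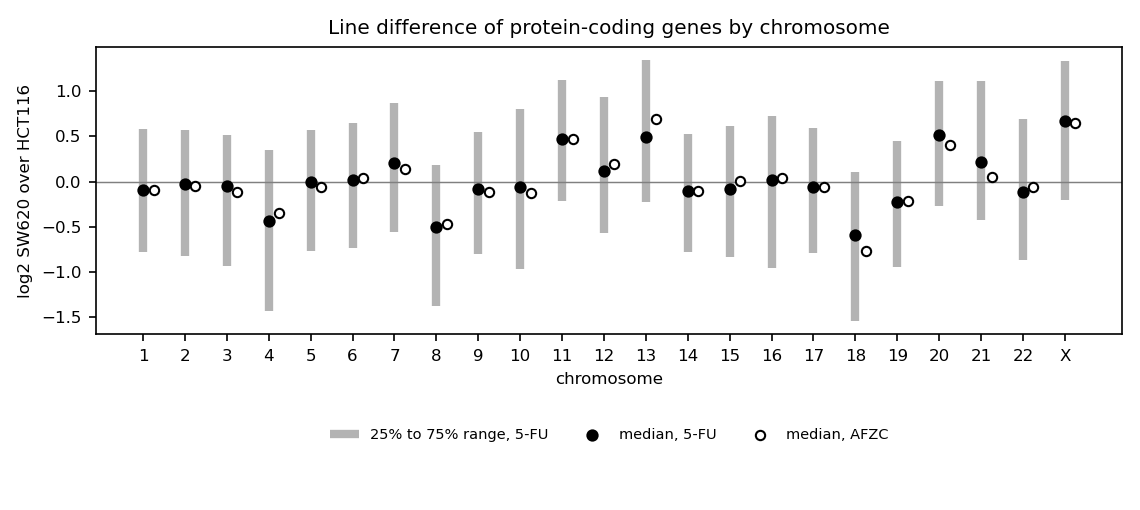
Median log2 fold change (SW620 over HCT116) of protein-coding genes with a mean of at least 1 CPM on each chromosome under 5-FU (filled, with the range from 25% to 75% of genes as bars) and under AFZC (open). Chromosomes 18, 8 and 4 lie lowest and X, 20, 13 and 11 highest, with similar medians under both agents.

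The line difference was measured again in the 4 AFZC libraries, whose group means share no sample with the 5-FU comparison. All 8 libraries were fitted in 1 model with a shared estimate of spread, so calls under the agents are not independent. There 5376 genes were higher in SW620 (25.1%) and 5164 in HCT116 (24.2%). In all, 7829 genes were called under both agents in the same direction, which is 66.9% of the 5-FU calls and 74.3% of the AFZC calls, and 231 were called in opposite directions. The difference between the agents was tested for each gene as the line difference under 5-FU minus that under AFZC. It passed for 884 genes above 0 (4.14%) and 1208 below 0 (5.65%). Of the 11704 genes called under 5-FU, 1722 had such a difference, and 623 of these had the other sign under AFZC. The total of 2092 fell to 757 without HCT116 library 1 under 5-FU, to 996 without HCT116 library 2 and to 1017 without SW620 library 2.

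Replication genes were the clearest case of a line difference that depended on the agent: 33 of 37 were higher in HCT116 under 5-FU, and 22 were higher in SW620 and 3 in HCT116 under AFZC. The test of the difference passed for 36 of the 37, all below 0, against 5.65% of all genes, and for 33 to 36 under the other settings tried. MCM6 measured 77.9 and 75.6 CPM in HCT116 and 132 and 113 CPM in SW620 under AFZC, and its line difference under 5-FU minus that under AFZC was -2.01 ± 0.20 on the log2 scale (adjusted p = 0.000142). E2F1 measured 32.8 and 29.7 against 98.9 and 98.1 CPM under AFZC, a difference between agents of -2.41 ± 0.24 (adjusted p = 0.000114). Under 5-FU the same genes stood lower in SW620, at 50.3 and 49.6 CPM (MCM6) and 18.8 and 23.1 CPM (E2F1), a comparison within the line that was not tested. Mitosis genes (10 higher in SW620 and 1 in HCT116 under AFZC, 13 agent differences below 0) and homologous recombination genes (13 and 2, with 15 below 0) had differences in this direction too. The 13 became 8 without HCT116 library 1 or SW620 library 2 under 5-FU, 27 without HCT116 library 2 under AFZC, 21 with library-total scaling and 22 without the filter on low counts. TK1, UNG and BRCA1 were also among the genes with an agent difference below 0, at -1.90, -0.93 and -2.46.

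The p53 targets moved the opposite way. Under AFZC 34 of 36 were higher in HCT116 and none in SW620 (median -2.20), and the agent difference passed above 0 for 29 of the 36 and below 0 for none, against 4.14% of all genes; the 29 ranged from 20 to 31 under the other settings tried. CDKN1A stood at 2029 and 1632 CPM in HCT116 and 157 and 123 CPM in SW620 under AFZC, compared with 189 and 175 CPM in HCT116 and 71.2 and 99.8 CPM in SW620 under 5-FU, a difference between agents of 2.62 ± 0.30 (adjusted p = 0.000299). MDM2 stood at 420.2 and 898 against 43.2 and 50.7 CPM under AFZC, and TP53I3 at 151 and 131 against 4.33 and 3.71 CPM. GDF15 and BTG2, higher in SW620 under 5-FU, were higher in HCT116 under AFZC, at 1747 and 1145 against 620.3 and 623 CPM (GDF15) and 237 and 159 against 64.2 and 47.3 CPM (BTG2). For each of these 5 genes the HCT116 libraries were higher under AFZC than under 5-FU, which was not tested within the line.

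**Figure D5:**
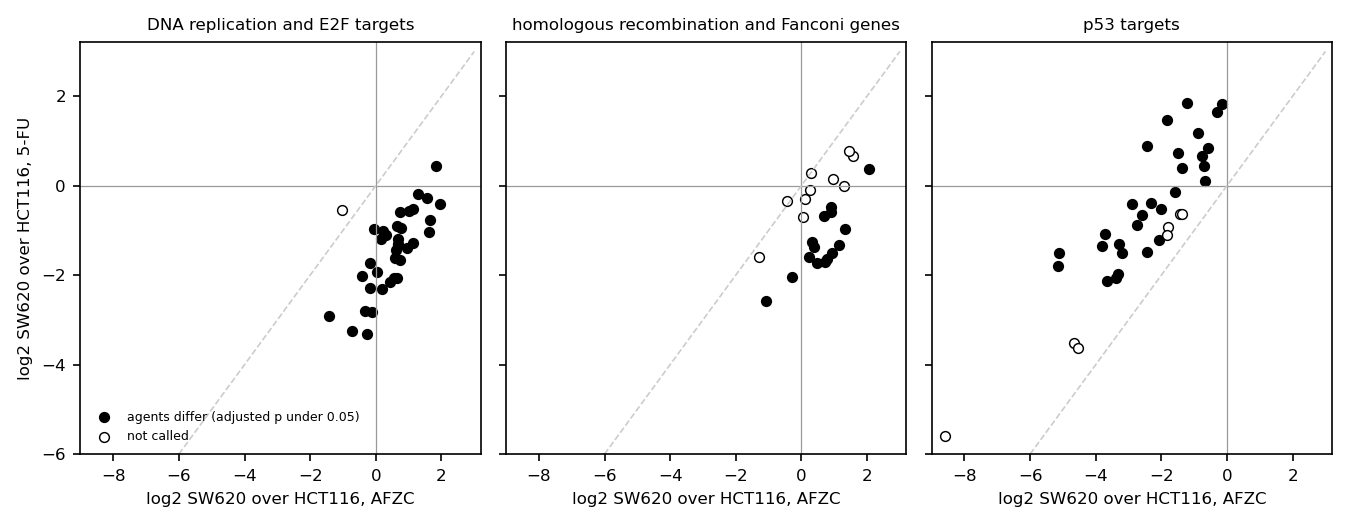
Log2 fold change (SW620 over HCT116) under 5-FU against that under AFZC for the tested members of the replication, homologous recombination and p53 target lists, 1 point per gene. Filled points passed the test of the difference between agents (36 of 37, 15 of 25 and 29 of 36), and the dashed line marks equal values; replication genes lie below it and p53 targets above it.

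Beyond the lists, the genes with the lowest values of the agent test were read in HCT116 under both agents and in SW620 only under AFZC. CD40, a TNF receptor family member, stood at 32.7 and 29.2 CPM in HCT116 with no count in SW620 under 5-FU, and at 2.90 and 0.725 CPM in SW620 under AFZC. DPYSL5, a collapsin response protein, stood at 1.27 and 0.641 CPM in SW620 under AFZC, OLFML2B, a matrix protein, at 0.647 and 0.195 CPM and RET, a receptor tyrosine kinase, at 0.647 and 0.251 CPM, each with no count under 5-FU. At the other end NKX2-5, a homeobox gene, and ZNF841, a zinc finger gene, had no count in HCT116 under 5-FU. There NKX2-5 had 0.742 and 0.360 CPM and ZNF841 0.291 and 0.166 CPM under AFZC. These agent calls thus rest on no more than 2.90 CPM in the line that was silent under 5-FU. ZNF841 lost the agent call without either HCT116 library under 5-FU, and KRT17 lost it without SW620 library 1 under AFZC.

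Several identity genes were higher in SW620 under both agents, by different amounts. HNF4A, NOTUM and CLDN1 were higher in SW620 under AFZC by 4.18, 3.37 and 6.35 on the log2 scale, compared with 5.64, 4.62 and 9.13 under 5-FU, and each of these agent differences passed the test (adjusted p = 0.00701, 0.0107 and 0.00561). CDX2 and AXIN2 had agent differences that did not pass (0.19 ± 0.25 and -0.69 ± 0.32). The intestinal list had 24 members higher in SW620 and 4 in HCT116 under AFZC, the same numbers as under 5-FU. Mitochondrial mRNAs were higher in HCT116 for all 13 under AFZC. Some structural genes of the epithelium did not keep the direction: KRT8 was lower in SW620 under AFZC, and ITGB4 stood at 633 and 633 against 613 and 710.4 CPM there, a log2 fold change of 0.06 ± 0.17 (adjusted p = 0.78).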

How the data were processed

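RNA of HCT116 and SW620 cells under 5-FU or AFZC was sequenced, with 2 libraries per group and 8 in all. The deposited table holds read counts per gene for 57169 genes, not normalized. Per the labels' protocols, libraries were made with oligo(dT) and do not keep the strand. Per the submitters' processing notes, the tools named are the counter featureCounts, the aligners STAR and HISAT2, the trimmers cutadapt and Trimmomatic, FastQC, edgeR and DESeq2, with build GRCh38; which aligner and settings made the deposited counts is not given in the sources used here. Of the table's rows, 56998 have the coordinates of GENCODE release 29, and 27 that carried a date in place of a symbol took their symbol from the gene at the same position. In each library, genes holding 2 counts outnumbered those holding 1 by a factor of 1.68 to 1.84, a pattern that counting both mates of a pair would give, so the counting intervals may be too narrow; they cover counting error only.

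The counts as deposited were fitted in R 4.3.3 with edgeR 4.0.16 (TMM scaling, filterByExpr with a minimum count of 10, robust quasi-likelihood fit, quasi-likelihood F-test), as 1 model of 4 group means over the 8 libraries with 4 residual degrees of freedom. The line difference under 5-FU, that under AFZC and the difference between them were tested, with Benjamini-Hochberg adjustment over 21378 genes. Standard errors are the size of the log2 fold change over the square root of F. The common coefficient of variation was 19.9%. A gene is called at an adjusted p under 0.05. No named called gene has overlapping libraries, but part of the naming rule required this, so it adds no support to a call. The share of all genes without overlap is not given here. Ratios for genes with few counts carry 95% exact binomial intervals. Alternatives included DESeq2 1.42.0. Libraries of a group differed by more than sampling noise (chi-square per degree of freedom 23.3 to 58.7), so none was a copy.

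The comparison, the 38 gene lists and the alternatives were chosen with earlier results of these data known. Genes were named by a rule: the 10 highest and 10 lowest fold changes and the 5 largest differences in CPM each way (at least 10 CPM, adjusted p under 0.05, no overlap, and no clone-type, antisense, LINC, pseudogene or Y-linked name), the 2 highest and 2 lowest called members of each list, members at 0 counts in 1 line and at least 10 CPM in the other, the 5 highest and 5 lowest differences between agents, and 13 fixed genes. A further 64 genes were chosen after their values were seen. Some genes that the rule names are not reported here. Genes named without values are list members. Promoters are RefSeq's on GRCh38.p14.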

Additional observations from a re-analysis of the deposited data

Results flagged for a closer look

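For genes that the report sets side by side under both agents, the line difference under 5-FU minus that under AFZC was taken from edgeR's quasi-likelihood fit, and the 28 genes below passed at an adjusted p under 0.05. Values are on the log2 scale, and a value above 0 means that SW620 stood relatively higher under 5-FU. No explanation for these differences was tested.

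The p53 targets passed above 0, with 3.62 for TP53I3, 3.30 for BTG2, 3.06 for GDF15, 2.62 for CDKN1A and 2.47 for MDM2. Epithelial structure genes passed above 0 as well. KRT8 had 2.76, KRT18 2.51, KRT19 2.45, ITGB4 1.96 and CLDN1 2.78. The value of CLDN1 rests on few counts in HCT116, 28 pooled under 5-FU and 168 under AFZC. The intestinal factor HNF4A had 1.46 and the WNT inhibitor NOTUM 1.25. Genes of DNA synthesis and repair passed below 0, with -2.46 for BRCA1, -2.41 for E2F1, -2.04 for TYMS, -2.01 for MCM6, -1.90 for TK1 and -0.93 for UNG.

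The 5 highest and 5 lowest values among genes of at least 10 CPM belonged to genes that were near or at 0 counts in 1 group, so they depend on the prior count of the fit and give a direction more than a size. Above 0 these were CBS (8.29), KRT17 (7.62), NKX2-5 (6.55), KRT16 (5.998) and ZNF841 (5.96). Below 0 they were CD40 (-9.39), DPYSL5 (-8.40), HLA-DRA (-7.77), OLFML2B (-7.52) and RET (-7.31).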

How the results depend on the processing

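Results were recomputed under 15 other settings: library-total scaling, median-ratio size factors, DESeq2, no filter on low counts, halved counts, a fit of the 5-FU libraries alone, a replicate block, and each of the 8 libraries left out. Where leaving a library out left 1 sample in a group, that sample was assumed to vary like the other groups. Of 246 genes chosen for the text, 223 kept their side of the threshold in each setting and 23 changed side in at least 1. Of the called genes 0 reversed, while CDK1 and B2M, which were not called, changed sign (down to -0.17 for B2M and up to 0.02 for CDK1). Counts of agent differences in 4 lists were rechecked after seeing the data. The counts called under 5-FU ranged from 4384 to 5764 (higher in SW620) and from 4528 to 6387 (higher in HCT116) on leaving out 1 library, and those of at least 2-fold from 3349 to 3917 and from 3806 to 4771. Under AFZC they ranged from 4493 to 5299 and from 4316 to 5144. The genes with a difference between agents (2092) ranged from 757 to 2460, with 757 without HCT116 5-FU library 1, 996 without HCT116 5-FU library 2 and 1017 without SW620 5-FU library 2. Library-total scaling gave 4267 and 7712 calls and turned the medians of 6 lists below 0: EGFR signalling, MHC class I, detoxification, ferroptosis drivers, ferroptosis suppressors and other cell types. Without SW620 5-FU library 1 the medians of ferroptosis drivers and of cholesterol genes became -0.02 and 0.02. Of 76 counts of list members, 46 stayed within 1.5 times in each setting. Same-numbered libraries deviated together little (correlations of -0.10 to 0.10). With 2 libraries per group this cannot settle whether they share a batch. The replicate block gave 5538 and 5837 calls under 5-FU, compared with 5674 and 6030 without it. With 4 residual degrees of freedom, 2 libraries per group and unknown doses, small differences between the lines could be missed.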
